A study of Homo sapiens with 1 sample.

Results

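The genes described here are 10 markers of nephron segments and of tubule injury: LRP2, CUBN, AQP1, ANPEP, MME and GGT1 of the proximal tubule, UMOD and CDH16 of distal segments, and VCAM1 and HAVCR1 of injured tubules. They are 10 of 20033 protein-coding genes in the annotation. A peak was assigned to a gene when its summit lay inside the gene record or within 50 kb of either end, which gave 116 of the 88615 peaks on the primary chromosomes of hg38. Open chromatin was mapped in 786-O cells by ATAC-seq, a method that uses the Tn5 transposase to cut and tag accessible DNA. 786-O is an established human renal cell carcinoma line, and the cells analysed are labelled as the empty-vector control of an overexpression study. The peak names in the deposited list carry a wild-type tag instead, and the label was used. There was 1 library and no replicate, so no test was made and no p-value is given. The labels give no age of the culture, dose or time, and the overexpressing cells are not analysed here. Intervals below cover counting error only, and the pileup at a summit is the highest of its peak.

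The nephron filters blood in the glomerulus and passes the filtrate along the proximal tubule, the loop of Henle, the distal tubule and the collecting duct. Proximal tubule cells carry a brush border with endocytic receptors and peptidases, and clear cell renal cell carcinoma is thought to arise from these cells. After injury, tubule cells lose much of this equipment and switch on surface proteins that are scarce in the healthy kidney. Accessibility at a promoter is needed for transcription as a rule but is not a measure of it, and no RNA was analysed here.

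To show what the promoters of these genes look like, the sequences of members that differed in accessibility are printed 5′ to 3′ along the gene, with every CpG in capitals. Each runs from 250 bases before to 50 bases after the canonical transcription start site (TSS), as given by RefSeq on GRCh38.p14, which was letter for letter the hg38 sequence. Of the 10 genes, 9 had an entry in the RefSeq promoter table. The first pair is from the injury genes, which had a peak at this site (HAVCR1, chr5:157059067-157059366, minus strand; VCAM1, chr1:100719492-100719791, plus strand).
HAVCR1: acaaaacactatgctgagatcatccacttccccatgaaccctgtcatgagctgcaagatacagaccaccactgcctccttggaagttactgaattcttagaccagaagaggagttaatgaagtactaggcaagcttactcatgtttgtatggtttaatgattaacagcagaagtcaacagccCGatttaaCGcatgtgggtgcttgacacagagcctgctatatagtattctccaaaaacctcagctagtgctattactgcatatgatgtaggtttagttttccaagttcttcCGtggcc
VCAM1: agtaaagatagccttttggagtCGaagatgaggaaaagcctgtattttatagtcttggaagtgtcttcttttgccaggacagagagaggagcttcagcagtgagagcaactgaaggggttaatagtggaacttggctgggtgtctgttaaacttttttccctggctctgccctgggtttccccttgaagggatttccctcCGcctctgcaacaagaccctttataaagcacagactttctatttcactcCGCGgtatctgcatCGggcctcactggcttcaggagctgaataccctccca
The next is from UMOD, which had no peak within 20 kb of the gene (chr16:20352666-20352965, minus strand).
UMOD: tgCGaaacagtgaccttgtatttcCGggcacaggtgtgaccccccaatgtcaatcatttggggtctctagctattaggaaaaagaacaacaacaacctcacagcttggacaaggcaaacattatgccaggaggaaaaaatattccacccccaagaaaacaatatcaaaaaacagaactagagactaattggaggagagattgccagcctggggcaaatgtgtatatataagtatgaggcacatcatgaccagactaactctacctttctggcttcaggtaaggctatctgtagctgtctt
The last pair is CpG-rich and had no peak in the promoter (LRP2, chr2:169362485-169362784, minus strand; ANPEP, chr15:89814803-89815102, minus strand).
LRP2: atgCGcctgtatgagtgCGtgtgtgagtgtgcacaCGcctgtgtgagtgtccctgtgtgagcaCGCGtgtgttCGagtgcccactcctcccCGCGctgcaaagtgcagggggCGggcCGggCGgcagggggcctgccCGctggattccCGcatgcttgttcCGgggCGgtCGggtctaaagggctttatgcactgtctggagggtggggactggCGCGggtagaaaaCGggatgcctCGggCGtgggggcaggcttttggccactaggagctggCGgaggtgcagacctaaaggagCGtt
ANPEP: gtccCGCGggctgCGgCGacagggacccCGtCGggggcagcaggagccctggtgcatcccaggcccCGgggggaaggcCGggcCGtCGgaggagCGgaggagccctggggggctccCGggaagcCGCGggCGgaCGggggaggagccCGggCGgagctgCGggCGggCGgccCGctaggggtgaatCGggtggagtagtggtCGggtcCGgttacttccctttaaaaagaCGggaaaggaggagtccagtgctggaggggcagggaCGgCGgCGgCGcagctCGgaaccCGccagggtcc
These stretches held 3 CpG in HAVCR1, 5 in VCAM1 and 2 in UMOD, compared with 23 in LRP2 and 32 in ANPEP.

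Each peak carries a fold enrichment, which is its summit pileup plus 1 divided by the genome-wide background of 0.9407 plus 1. The median fold over all peaks was 10.8 (interquartile range, 6.70 to 20.6), and 35.7% of all peaks had a pileup under 15. The 116 peaks of the marker genes had a median fold of 11.9 and ranged from 5.15 to 76.3, at pileups of 9 to 147. Of these, 29 (25%) had a pileup under 15. The smallest fold, 5.15, had a 95% interval of 2.64 to 9.32, so peaks at the bottom of the list cannot be ranked among themselves.

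To ask how accessible the 3 classes were, promoter peaks were counted first. A promoter was taken as the 1 kb before and the 100 bp after any annotated TSS of the gene. A promoter peak was present at 6 of the 10 genes, close to the 61.4% of all protein-coding genes. It was present at 3 of the 6 proximal tubule genes (CUBN, MME and GGT1), at 1 of the 2 distal segment genes (CDH16) and at both injury genes. With the canonical TSS alone the count was 4 of 10 (MME, CDH16, VCAM1 and HAVCR1), compared with 52.2% of all protein-coding genes. By this measure 1 of 6 proximal tubule genes had a peak, and CDH16 and both injury genes had a peak. At 6, 2 and 2 genes per class these shares do not separate the classes. All 10 genes had a peak in the gene or within 50 kb, as did 92.2% of protein-coding genes. A peak lay inside 8 of the 10 genes, all except ANPEP and UMOD, compared with 65.1% of protein-coding genes.

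Peaks were then counted per 100 kb of gene and flanks. The proximal tubule genes had 75 peaks in 1379 kb, or 5.44 per 100 kb (exact Poisson 95% interval, 4.28 to 6.82). The injury genes had 20 peaks in 262 kb, or 7.63 per 100 kb (4.66 to 11.8). The distal segment genes had 21 peaks in 234 kb, or 8.97 per 100 kb (5.55 to 13.7). The 3 intervals overlapped, and the median protein-coding gene had 4.51 per 100 kb (interquartile range, 2.32 to 7.36). The spread within a class was wider than that between classes. In the distal segment class UMOD had 1.62 and CDH16 had 17.1 peaks per 100 kb, and in the injury class VCAM1 had 3.35 and HAVCR1 had 11.2. Within the proximal tubule class the values went from 2.98 at LRP2, 3.08 at MME and 4.40 at AQP1 to 6.71 at GGT1, 7.39 at CUBN and 9.96 at ANPEP. Neighbours in this order had overlapping intervals.

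**Figure D1:**
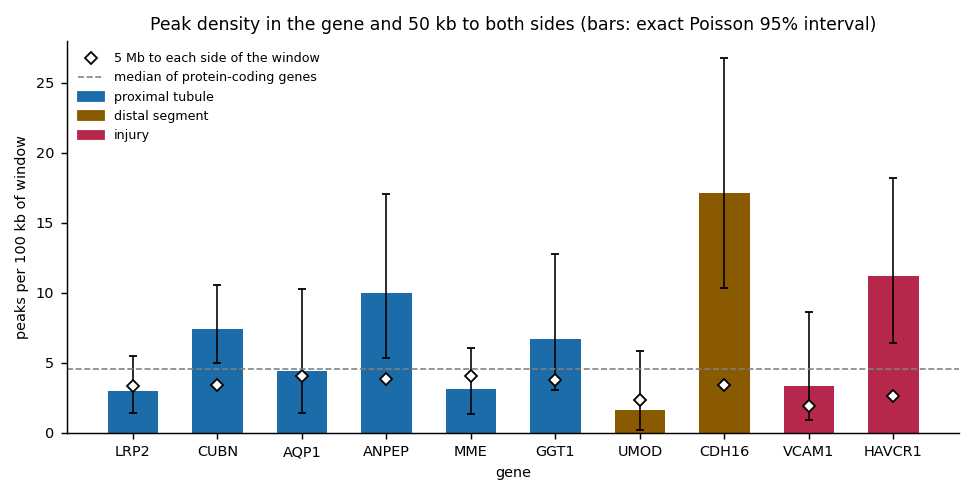
Peaks per 100 kb of window (the gene and 50 kb to both sides) for the 10 genes, coloured by class, with exact Poisson 95% intervals as bars; diamonds give the density in 5 Mb to each side and the dashed line the median protein-coding gene. CDH16 (17.1) and HAVCR1 (11.2) stand highest and UMOD (1.62) lowest, so the distal segment and injury classes each hold a high and a low gene.

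The local surroundings were compared in the same way. The 5 Mb to each side of the windows held between 1.89 (VCAM1) and 4.02 (AQP1, MME) peaks per 100 kb. CUBN, ANPEP, CDH16 and HAVCR1 had windows whose whole interval lay above the density of their surroundings, which was 3.37, 3.82, 3.41 and 2.61 per 100 kb. For the other 6 genes the surrounding density lay inside the interval. The median protein-coding window, at 4.51, was itself above the surroundings of all 10 genes. Among protein-coding windows, CUBN was denser than 75.2%, ANPEP than 89.0%, HAVCR1 than 92.7% and CDH16 than 99.3%. The intervals treat peaks as independent of each other, which was not tested. The median fold of the surrounding peaks was 10.3 to 11.3 for all 10 genes. Of the 116 summits, 7 lay at the promoter of the gene itself and 45 elsewhere inside it. Another 12 lay at the promoter of another gene, 30 inside another gene and 22 between genes. The nearest protein-coding TSS was that of the marker gene for 61 summits.

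**Figure D2:**
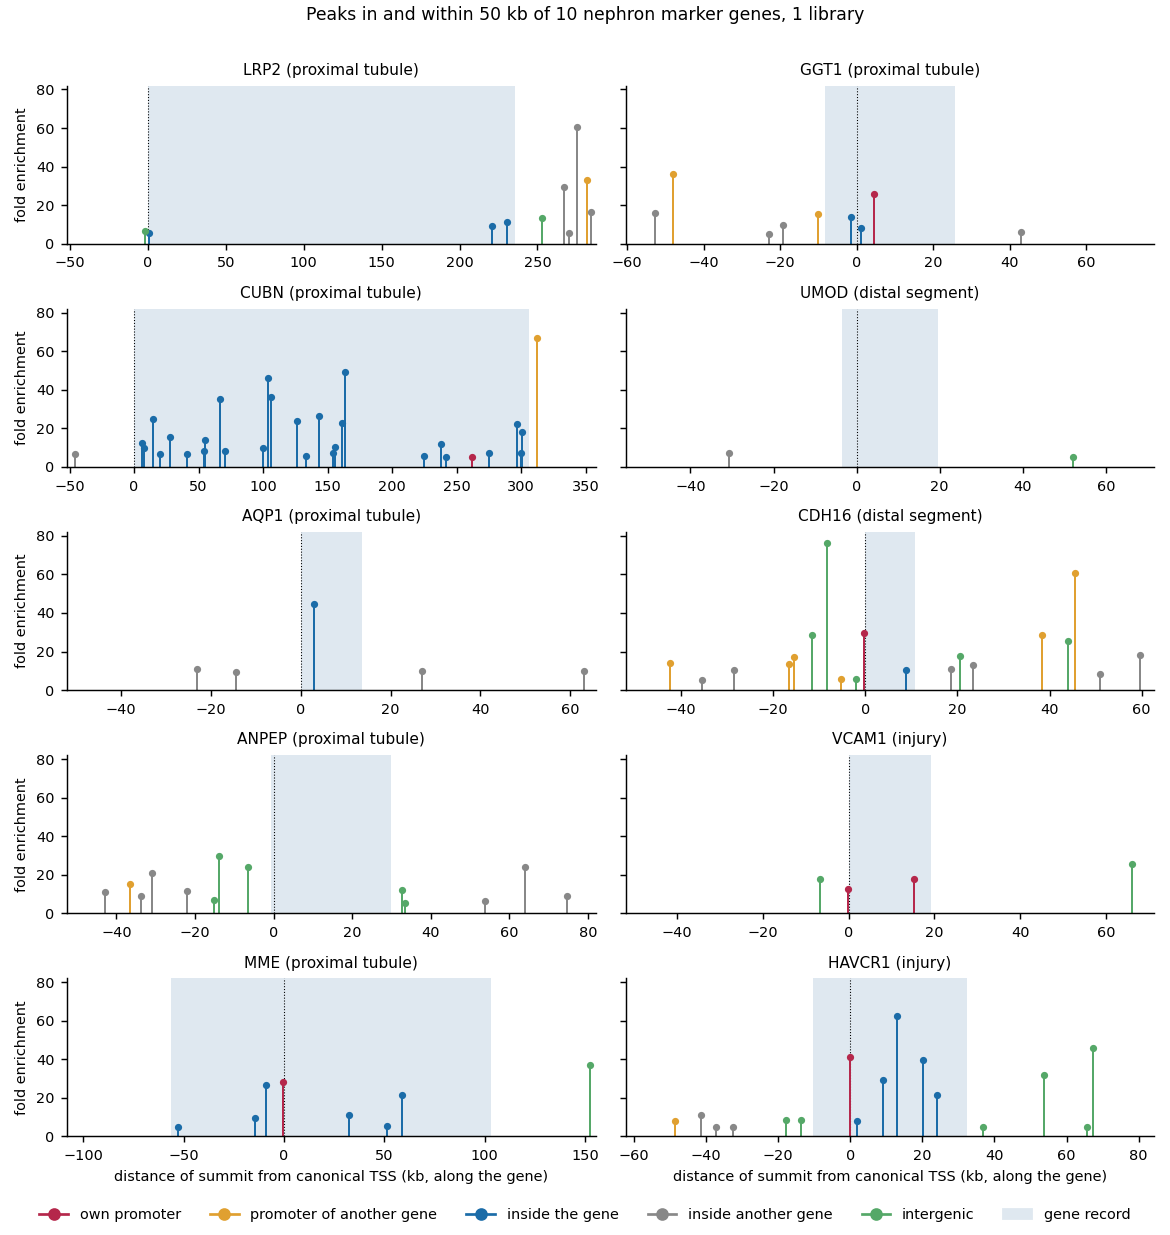
Position of each of the 116 summits as distance from the canonical TSS in kb along the direction of transcription (horizontal axis) and its fold enrichment (vertical axis), with 1 panel per gene, the gene record shaded and colours for the place of the summit. CUBN and HAVCR1 hold strong peaks inside the gene, the strongest peaks near LRP2 lie beyond its 3′ end, and UMOD has 2 weak peaks.

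Among the endocytic receptors of the proximal tubule, LRP2 and CUBN differed. LRP2 encodes megalin, the large receptor that takes up filtered proteins (ENSG00000081479, chr2:169127109-169362534, minus strand). It had 10 peaks in its window, of which 3 lay inside its 235 kb, and none at its promoter. The summits nearest to the LRP2 start lay 581 bp downstream, in intron 1, with a fold of 5.67 (2.99 to 9.99), and 2106 bp upstream, with a fold of 6.70 (3.71 to 11.3). The strongest peak inside LRP2 was in intron 77 with a fold of 11.3. The strong peaks of the LRP2 window lay at the neighbouring DHRS9, where folds of 60.3 and 29.4 were found inside the gene and 33.0 at the promoter.

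CUBN encodes cubilin, which binds intrinsic factor with vitamin B12 and works together with megalin (ENSG00000107611, chr10:16823966-17129811, minus strand). It had 30 peaks, 28 of them inside the gene, where summits were spread over 295 kb. The density inside CUBN was 9.15 per 100 kb, higher than that of 83.9% of protein-coding genes of 10 kb or more. Of the 28 peaks, 9 had a fold above 20 and the median was 11.1. Over all peaks the upper quartile was 20.6 and the median 10.8, so as a set these peaks were near the usual fold. The highest was 49.5 (40.1 to 60.4) in intron 31. Next came 45.9 (36.9 to 56.4) and 36.1 (28.2 to 45.5) in intron 27 and 35.0 (27.3 to 44.4) in intron 22. The sequence at the strongest summit (chr10:16966062-16966162, minus strand, hg38) is shown because it carried matches to the NF-κB motif and to the RUNX motif TGTGGT, in capitals.
CUBN intron 31: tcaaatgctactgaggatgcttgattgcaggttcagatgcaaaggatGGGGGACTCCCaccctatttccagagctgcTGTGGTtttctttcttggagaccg
The canonical CUBN promoter had no peak, and the nearest summit inside the gene lay 6237 bp downstream in intron 5 with a fold of 12.4. The 1 peak counted as a CUBN promoter peak lay in intron 59, 847 bp upstream of the start of another transcript, and had the lowest fold of all peaks, 5.15 (2.64 to 9.32). The strongest peak of the CUBN window, with a fold of 67.0, was at the promoter of RSU1. Of the 28 summits inside CUBN, 2 lay in coding exons, exons 10 and 66, and the others in introns.

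AQP1 encodes a water channel of the proximal tubule and thin descending limb (ENSG00000240583, chr7:30911853-30925517, plus strand). It had 5 peaks and none at its promoter. The 1 peak inside AQP1 lay in intron 1, 2896 bp downstream of the canonical TSS and 1458 bp downstream of the start of another transcript. Its fold was 44.8 (36.0 to 55.2), higher than 94.3% of all peaks. The other 4 summits of the AQP1 window lay inside other genes and had folds of 9.28 to 10.8. The sequence at the intronic summit (chr7:30914699-30914799, plus strand, hg38) is shown as the strongest site inside this gene. It held no CpG and no match to any of the 10 motifs searched, so it has no capitals.
AQP1 intron 1: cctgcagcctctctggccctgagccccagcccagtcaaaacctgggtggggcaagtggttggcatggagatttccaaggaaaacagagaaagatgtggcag

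Of the brush border enzymes, ANPEP, MME and GGT1 had different arrangements. ANPEP encodes aminopeptidase N, which trims peptides at the cell surface (ENSG00000166825, chr15:89784895-89815401, minus strand). It had 13 peaks in the window and none inside the gene. The nearest upstream peak was 2991 bp wide with its summit 6575 bp upstream of the canonical TSS and a fold of 24.2 (17.9 to 32.1). The strongest peak of the ANPEP window, 29.9 (22.8 to 38.6), lay between genes at 13839 bp upstream. Of the 13 summits, 1 had the ANPEP start as its nearest protein-coding TSS. The other 12 had AP3S2, MESP1 or MESP2 as theirs, and 1 of them, with a fold of 14.9, was at the promoter of the microRNA gene MIR5094.

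MME encodes neprilysin, a peptidase of the brush border that is also used as a marker of renal cell carcinoma (ENSG00000196549, chr3:155024124-155183704, plus strand). It had 8 peaks, 7 inside the gene record. The promoter peak had a fold of 28.3 (21.4 to 36.8) and lay 428 bp upstream of the canonical TSS, 35 bp from the nearest start of another transcript. Peaks of 26.8 and 21.6 lay 9182 bp upstream of the canonical TSS and in intron 9. The strongest MME peak, 37.1 (29.1 to 46.7), lay between genes downstream. MME was the 1 proximal tubule gene with a peak at its canonical promoter.

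GGT1 encodes gamma-glutamyltransferase, which cleaves extracellular glutathione (ENSG00000100031, chr22:24594811-24629005, plus strand). It had 9 peaks, 3 inside the gene. The promoter peak, with a fold of 25.8 (19.2 to 33.9), was at the start of another transcript in intron 1, 4398 bp downstream of the canonical TSS. The remaining GGT1 peaks inside the gene had folds of 13.9 and 8.24. The strongest peak of the window, 36.1, was at the promoter shared by GUCD1 and SNRPD3, and a peak of 15.5 was at the promoter of LRRC75B. Near-identical copies may limit what can be seen at GGT1. When 150 bp tiles were aligned back to hg38, 18.1% of tiles in GGT1 had a mapping quality under 30, and 10.0% of those within 500 bp of the TSS. The authors also removed reads under 30, but from read pairs aligned with Bowtie2, which scores quality on its own scale. The shares of tiles therefore need not match what their filter removed. Matches were found on unlocalised and alternative chromosome 22 sequences that held no peak. Copies on the primary chromosomes were not listed, so these need not be the only ones. In the other 9 genes no tile within 500 bp of the TSS was affected, and the highest share over a gene was 4.40%, at LRP2.

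The distal segment genes stood at opposite ends. UMOD encodes uromodulin, the protein that thick ascending limb cells secrete into urine (ENSG00000169344, chr16:20333051-20356301, minus strand). It had 2 peaks, which were 27241 bp and 41902 bp from its nearest start, with folds of 7.21 (4.08 to 12.0) and 5.15 (2.64 to 9.32). Neither lay in UMOD, the first was inside PDILT and the second between genes. The density of 1.62 per 100 kb (0.197 to 5.86) was higher than that of 17.6% of genes, and the surroundings of UMOD had 2.32. At this depth the UMOD window cannot be told from its surroundings.

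CDH16 encodes kidney-specific cadherin, an adhesion molecule of tubule epithelium that is strongest in distal segments (ENSG00000166589, chr16:66908122-66918917, minus strand). It had 19 peaks, a density of 17.1 per 100 kb (10.3 to 26.8), higher than that of 99.3% of protein-coding genes. Of these, 6 lay at promoters of other genes, and 3 had CDH16 as the nearest TSS. The CDH16 promoter peak lay 313 bp upstream of the canonical TSS and had a fold of 29.4 (22.3 to 38.0). The 1 peak inside the gene, in intron 16, had a fold of 10.3. The sequence at the promoter summit (chr16:66919148-66919248, minus strand, hg38) is shown because it held no CpG. It also held no match to the 10 motifs and so has no capitals.
CDH16 promoter: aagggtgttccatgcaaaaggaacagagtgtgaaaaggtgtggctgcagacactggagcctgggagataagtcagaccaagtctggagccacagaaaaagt
The strongest peak of the CDH16 window, 76.3 (64.5 to 89.5), was 4470 bp wide and lay 8358 bp upstream of CDH16 and 1708 bp from the RRAD start. It had the highest fold of the 116 and a higher fold than all peaks in the surrounding 5 Mb. Others were at the promoters of NAE1 (60.8), PDP2 (28.3), CES2 with CIAO2B (17.0), CES2 alone (13.4), CES3 (13.9) and RRAD (5.67).

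The injury genes both had a peak at the canonical promoter and differed in what surrounded it. HAVCR1 encodes KIM-1, a receptor for phosphatidylserine on dying cells that appears on injured proximal tubule cells (ENSG00000113249, chr5:157026742-157069396, minus strand). It had 16 peaks, of which 6 lay inside the gene over 24.4 kb. Its promoter peak was 2724 bp wide, with a summit 192 bp upstream of the canonical TSS and a fold of 41.2 (32.7 to 51.2). Among protein-coding genes with a promoter peak, 77.2% had a lower highest fold. Further along HAVCR1 the folds were 8.24 in intron 2, 29.4 in intron 4, 62.3 (51.8 to 74.5) in intron 5, 39.7 (31.4 to 49.5) in intron 6 and 21.6 in intron 7. Thus 5 of the 6 peaks inside the gene, the promoter peak among them, had a fold above 20, where the upper quartile of all peaks was 20.6. Their median of 34.5 compares with 9.28 inside LRP2, 11.1 inside CUBN, 11.3 inside MME and 13.9 inside GGT1. The single peaks inside AQP1, VCAM1 and CDH16 had folds of 44.8, 18.0 and 10.3. Over the whole HAVCR1 window the median was 10.0, compared with 10.8 over all peaks. The density inside HAVCR1, 14.1 per 100 kb, was higher than that of 93.2% of protein-coding genes of 10 kb or more. Downstream, peaks of 31.9 and 45.9 lay between genes at 53637 bp and 67233 bp from the canonical TSS. In contrast, the 4 summits in the neighbouring HAVCR2, an immune cell receptor gene, had folds of 5.15, 5.15, 11.3 and 8.24. The sequence at the intron 5 summit (chr5:157046138-157046238, minus strand, hg38) is shown because it carried matches to 3 motifs in capitals: AP-1 (TGACTCA), TEAD (GGAATG, here on the other strand) and the HNF1 short site (GTTAAT).
HAVCR1 intron 5: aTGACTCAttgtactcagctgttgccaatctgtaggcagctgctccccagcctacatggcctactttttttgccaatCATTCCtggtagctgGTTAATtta

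VCAM1 encodes an adhesion molecule that binds leukocyte integrins, is induced through NF-κB and marks proximal tubule cells that fail to repair (ENSG00000162692, chr1:100719742-100739045, plus strand). It had 4 peaks, and all 4 had VCAM1 as the nearest protein-coding TSS. The canonical promoter peak lay 75 bp upstream of the TSS with a fold of 12.4 (8.03 to 18.3). The other promoter peak was in intron 8, 266 bp upstream of the start of a short transcript, with a fold of 18.0 (12.6 to 25.0). Peaks between genes lay 6573 bp upstream (18.0) and 66133 bp downstream (25.8) of the canonical TSS. The VCAM1 promoter fold was below that of HAVCR1, and their intervals did not overlap at the canonical TSS. The background is genome-wide, so a difference in copy number between the loci would also enter these folds, and this was not tested. The summit of the canonical promoter (chr1:100719617-100719717, plus strand, hg38) is shown for its NF-κB match, in capitals.
VCAM1 promoter: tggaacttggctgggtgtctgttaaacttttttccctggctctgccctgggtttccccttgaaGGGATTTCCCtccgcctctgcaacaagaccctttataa

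**Figure D3:**
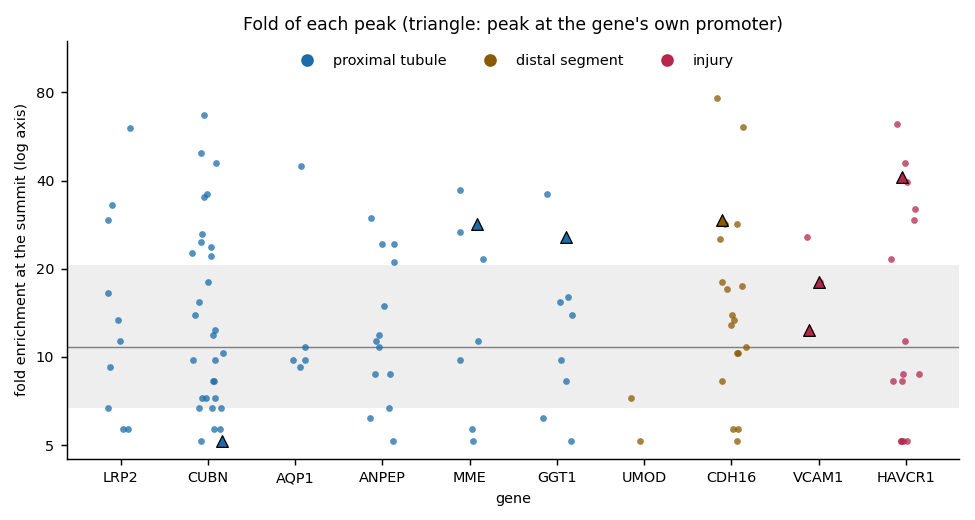
Fold enrichment of every peak in the windows of the 10 genes (logarithmic axis), with triangles for peaks at the gene's own promoter; the grey line is the median of all peaks (10.8) and the band their interquartile range (6.70 to 20.6). The HAVCR1 promoter peak (41.2) is the highest triangle, the CUBN one (5.15) the lowest, and LRP2, AQP1, ANPEP and UMOD have none.

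CpG-rich promoters are open more often than CpG-poor ones in most cell types, so CpG content was compared for these genes. The ratio of observed to expected CpG was taken over the 300 bases around the canonical TSS. Its median was 0.775 over all protein-coding genes, 0.864 for those with a canonical promoter peak and 0.487 for those without. The share of protein-coding genes with a peak went from 6.50% at ratios under 0.1 to 78.8% at 1.2 or above. LRP2 (0.764) and ANPEP (0.815) had no peak, whereas 65.7% and 68.8% of genes within 0.1 of their ratios had one. CDH16 (0.130), HAVCR1 (0.217) and VCAM1 (0.286) had a peak, whereas 10.3%, 13.4% and 15.5% of genes like them did. MME (0.613) had a peak, as did 49.1% of genes like it. CUBN (0.0806), UMOD (0.142), GGT1 (0.270) and AQP1 (0.317) had none, as was the case for most genes of such ratios, of which 8.15%, 10.6%, 14.9% and 16.9% had one. Among these 10 genes the 2 highest ratios were therefore at promoters without a deposited peak. Of the 4 canonical promoters with a peak, 3 were CpG-poor, whereas the lower quartile of all protein-coding genes with such a peak was 0.744. CUBN, UMOD, GGT1 and AQP1 were CpG-poor as well and had no peak. These counts therefore do not tell the members with a peak from those without. The peak 581 bp downstream of the LRP2 start counts as a promoter peak when the promoter reaches 1 kb to both sides.

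**Figure D4:**
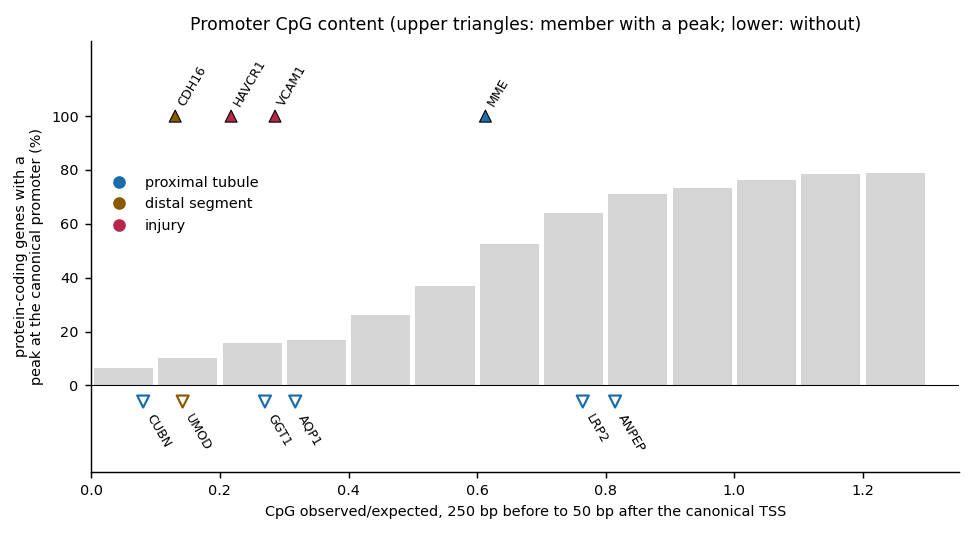
Share of protein-coding genes with a peak at the canonical promoter (grey bars, percent) by the observed to expected CpG ratio of the 300 bases around the TSS, the last bar taking ratios of 1.2 or above; filled triangles at the top mark member genes with a peak and open triangles at the bottom those without, at their own ratios. LRP2 and ANPEP are without a peak where most genes have one, and CDH16, HAVCR1 and VCAM1 have a peak where few genes do.

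Short sequence motifs were counted as a description, on both strands. The promoters of the table were searched first, where a match is a string of letters and no evidence of binding. HAVCR1 had the HNF1 short site GTTAAT at 138 and 91 bp upstream of its TSS, and VCAM1 had it at 133 bp, while 6.88% of 35116 RefSeq promoters of the same length held it. The site is rich in A and T, and the GC content was 43.0% at HAVCR1 and 48.3% at VCAM1. The median over protein-coding genes was 63.7%, and the share among promoters of like composition was not counted. HNF1 factors are regulators of proximal tubule genes. The NF-κB motif of VCAM1 lay 62 bp upstream of the TSS, and 5.91% of promoters held that motif. The HNF4 motif CAAAGNNCA was found in CUBN at 220 and 45 bp and in LRP2 at 152 bp upstream, and in 5.28% of promoters. The SP/KLF motif GGGCGG was found 4 times in ANPEP, where the last pair overlapped, 3 times each in LRP2 and AQP1 and 2 times in GGT1, and in 45.0% of promoters. AQP1 also held the RUNX motif TGTGGT, as did 13.1% of promoters. The hypoxia response element, searched as ACGTG or GCGTG, was found 5 times in LRP2, with 1 pair overlapping, and 2 times in MME, and in 48.4% of promoters. UMOD held none of the 10 motifs.

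At the 116 summits, motifs were counted within 50 bp to each side and set beside their shares in all peaks. AP-1 (TGACTCA or TGAGTCA, which are the same site on opposite strands) was found at 13 summits, or 11.2% (exact 95% interval, 6.10 to 18.4), compared with 15.7% of all peaks. RUNX was found at 17.2% (10.9 to 25.4) compared with 12.6%, and the hypoxia response element at 13.8% (8.09 to 21.4) compared with 16.0%. TEAD stood at 8.62% compared with 9.41%, SP/KLF at 5.17% compared with 8.45%, HNF1 at 4.31% compared with 3.67%, HNF4 at 2.59% compared with 2.22%, CTCF at 2.59% compared with 2.23% and ETS (CCGGAAG) at 0.862% compared with 1.51%. NF-κB was found at 5 summits, or 4.31% (1.41 to 9.77), compared with 2.06%. The share in all peaks lay inside the interval for each of the 10 motifs. For motifs found at few summits, such as NF-κB and ETS, the interval is too wide to show that the shares are alike. At HAVCR1, AP-1 was found at 4 of 16 summits, among them those of introns 4 and 5. At CUBN it was found at 5 of 30 and RUNX at 7 of 30. None of the 16 HAVCR1 summits held the NF-κB motif, which allows a share of up to 20.6%.

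To set the 10 genes among others of their kind, wider marker lists were counted in the same way. These lists were chosen with earlier results of these data known, so the intervals describe the listed genes and are no test. The CpG content of the lists was not compared. Of 24 further proximal tubule genes, 11 had a promoter peak (45.8%; exact 95% interval, 25.6 to 67.2), and of 24 genes of the loop of Henle, distal tubule and collecting duct 9 had one (37.5%; 18.8 to 59.4). Both shares lay below 61.4%, which was inside the first interval and above the second. Of 24 genes of tubule injury and repair, 20 had one (83.3%; 62.6 to 95.3), which lay above it. With the canonical TSS alone the reading changed, against 52.2% of all protein-coding genes. The proximal tubule and distal lists had 5 genes each (20.8%; 7.13 to 42.2), below that share with the whole interval, and the injury list had 16 (66.7%; 44.7 to 84.4), whose interval included it. The highest folds in the proximal tubule list were at DAB2 (68.0), the adaptor of megalin endocytosis, SLC4A4 (34.0), the basolateral bicarbonate transporter, and SLC5A2 (27.8), a glucose transporter. DAB2 had it at the canonical start, the others at another transcript. In the distal list they were at FXYD2 (34.5), a subunit of the sodium pump, CLDN16 (26.3), a tight junction protein of the thick ascending limb, and SCNN1A (17.5), a subunit of the epithelial sodium channel. At the canonical start SCNN1A had the same peak, FXYD2 had a fold of 12.4 and CLDN16 had no peak. In the injury list they were at the intermediate filament genes VIM (47.9) and KRT8 (43.3) and at SPP1 (33.5), which encodes osteopontin. At the canonical start SPP1 had the same peak, KRT8 had a fold of 27.3 and VIM had no peak. Cultured epithelial and tumour cells of many kinds express filament genes of this list, and no other cell type was analysed here. The injury genes without a promoter peak were LCN2, TNFRSF12A, LIF and ITGB6.

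Markers of other kidney cells were counted as well. Of 6 podocyte genes, 3 had a promoter peak (50%; 11.8 to 88.2), at WT1 (20.1), SYNPO (18.6) and PLA2R1 (7.73), and NPHS1, PODXL and PTPRO had none. Of 8 endothelial genes, EMCN had one (12.5%; 0.316 to 52.7), at the lowest fold of all peaks, 5.15. The other 7 endothelial genes had none, PECAM1 and CDH5 among them. Of 8 leukocyte genes, CD68 (36.1) and CD14 (6.70) had one (25%; 3.19 to 65.1). The other 6 leukocyte genes had none, among them PTPRC, which marks all leukocytes. The 61.4% of all protein-coding genes lay above the endothelial interval and inside the podocyte and leukocyte intervals. With the canonical TSS alone, 1 podocyte gene (16.7%), 1 endothelial gene (12.5%) and 2 leukocyte genes (25%) had a peak. WT1 and SYNPO had theirs at another transcript. By that measure the proximal tubule and distal lists had 20.8% each, so it does not separate the tubule lists from these.

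**Figure D5:**
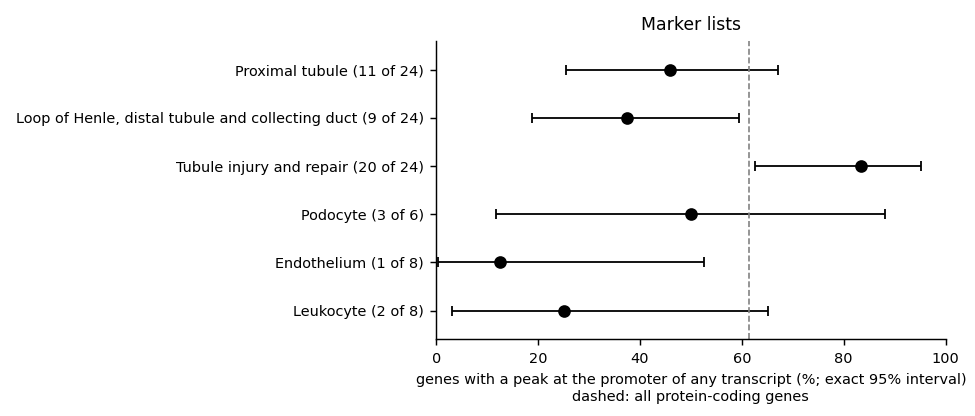
Percent of genes in each marker list with a peak at the promoter of any transcript, with exact 95% intervals as bars and the share of all protein-coding genes (61.4%) as a dashed line. The lists were chosen with earlier results of these data known, so the intervals are no test. The injury and repair list (83.3%) lies above the line and the distal list (37.5%) below it with their whole intervals, and the proximal tubule interval crosses it; with the canonical TSS alone, against 52.2%, the injury interval crosses the share of all genes and the proximal tubule and distal intervals lie below it.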

How the data were processed

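ATAC-seq was performed by the authors on 786-O cells with an empty vector, and the peaks of 1 library were used. According to the study's methods and processing notes, reads were trimmed with fastp, aligned to hg38 with Bowtie2 2.3.4.3, filtered for mapping quality of at least 30 and called with MACS2 2.2.6. A shift of reads to the Tn5 cut is not given in the sources used here, so summits may lie some bases off. The deposited fold is the ratio of summit pileup to a genome-wide background. The deposited −log10 p-value, −log10 q-value and score follow from the same pileup, and the lowest deposited score was 52. The total read count is unknown. The deposited summit offset gave positions. Of 88676 peaks, 61 lay outside the primary chromosomes and were left out.

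Genes were those of GENCODE release 44. Some genes of the podocyte list are not reported here, and its count leaves them out. The members, lists and motifs were chosen with earlier results of these data known. The rule for names was to give all 10 members with their strongest promoter, internal and window peaks, the 3 strongest genes of a list and those that lacked or had a peak where 5 or fewer did. The pileup, recovered from the fold, was a whole number to within 1.83e-05. Intervals are exact Poisson (pileups and densities) or Clopper-Pearson (shares) at 95%. Tiles of 150 bp every 50 bp were aligned with minimap2 2.31. Scripts ran under Python 3.11.15 (pandas 2.3.3, numpy 2.4.6, scipy 1.17.1, pysam 0.24.0 and matplotlib 3.10.9), and the peak assignment was tested on simulated data. Alternatives changed the score minimum, the window, the promoter, the assignment and the members of a class.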

Additional observations from a re-analysis of the deposited data

How the results depend on the processing

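The depth of 1 library limits these values, since a gene without a peak may still be open below the cut-off of the deposited list. The study's methods give a q-value cut-off of 0.05 for the caller. The lowest deposited score, 52, is stricter than that, so weaker called sites may be absent from the list. No paired analysis was possible because the data held only 1 sample. With peaks above a score of 100, the proximal tubule density was 3.99 per 100 kb. Above 200, there were 59 peaks, and the densities were 2.61 (proximal tubule), 5.13 (distal segment) and 4.20 (injury), so all 3 fell and the proximal tubule value stayed the lowest. With the gene body alone there were 50 peaks, and the distal segment density was 2.94, below the 5.39 of the proximal tubule and the 11.3 of the injury genes. This distal segment value rests on the 1 peak inside CDH16, and the injury value on 6 peaks inside HAVCR1 and 1 inside VCAM1. Without CDH16 the distal segment density was 1.62, the lowest of the 3. The distal segment density also fell below that of the injury genes with 100 kb to both sides (7.14 and 7.79) and without peaks at promoters of other protein-coding genes (6.41 and 7.25), so the order of these classes is not settled. The remaining 28 alternative values for the class densities and counts moved by less than their counting interval or stayed within 1.5 times. Of the densities of single genes, 12 of 60 alternative values moved further. Above a score of 200, HAVCR1 had 4.91, CUBN 3.70, ANPEP 4.60 and AQP1 0.880 per 100 kb. In the gene body CDH16 had 9.26 and LRP2 1.27. UMOD was at 0 under 4 of the settings and ANPEP was at 0 in the gene body, and CUBN had 4.93 above a score of 100. The number of genes with a promoter peak was 5 above a score of 100 or 200 (without CUBN), 7 with 1 kb to both sides of the TSS (with LRP2), 8 with 2.5 kb (with LRP2 and AQP1) and 4 with the canonical TSS. The CUBN promoter fold was 26.3 with 2.5 kb to both sides.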
